A study of Mus musculus with 4 samples.

Results

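The mouse immune panel used in this experiment holds 8 genes that act in the cell division cycle, and their reads are described here across the cells of 4 brains. The 8 genes were Mcm2, Mcm4, Tyms, Top2a, Ube2c, Aurkb, Mki67 and 2810417H13Rik, and they were chosen by name from the 397 genes of the panel by a rule that uses no measured value, with earlier results of these data known. Single cells came from 2 male 5XFAD;Abi3-/- mice (KO1 and KO2) and 2 male 5XFAD;Abi3+/+ mice (WT1 and WT2), each 9 months old, with 1 library per mouse. Where a value is given for each of the 4 mice without their names, the order is KO1, KO2, WT1 and WT2. 5XFAD mice carry transgenes driven by the neuronal Thy1 promoter and accumulate amyloid in the brain. Both groups carried these transgenes, so no mouse without amyloid was part of the comparison. In Abi3-/- mice the Abi3 locus was deleted with a gene-targeting vector, and Abi3+/+ mice kept both copies of Abi3, a gene expressed in microglia. Abi3 itself is not on the panel, so its reads could not check the genotype labels. The right hemisphere without cerebellum was dissociated in the cold, depleted of myelin and processed by a protocol that enriches glia, and the 397 panel genes were then amplified and sequenced from each cell.

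A cell that divides copies its DNA in S phase and separates the copies in mitosis, and it makes the machinery for each step shortly before using it. Cells at rest keep few of these transcripts, so the joint presence of several of them marks cells in cycle. Microglia, the resident macrophages of the brain, renew themselves slowly by local division and are known to proliferate around amyloid.

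Of the 3 replication genes, Mcm2 and Mcm4 encode subunits of the helicase that opens DNA at replication origins, and Tyms encodes thymidylate synthase, which supplies thymidine nucleotides. The 3 mitosis genes were Top2a, the topoisomerase that untangles sister DNA, Ube2c, a ubiquitin-conjugating enzyme of the anaphase-promoting complex, and Aurkb, the kinase of the chromosomal passenger complex. Mki67 encodes Ki-67, the common histological label of cycling cells. 2810417H13Rik is an older symbol of Pclaf, which encodes a factor that binds the replication clamp PCNA, and the files use the older symbol. On GRCm38.p6, RefSeq places Mcm2 at chr6:88883474-88898780, Mcm4 at chr16:15623897-15637400, Tyms at chr5:30038546-30073645 and Top2a at chr11:98992947-99024199. Ube2c lies at chr2:164769929-164772902, Aurkb at chr11:69045624-69051664, Mki67 at chr7:135689784-135716450 and 2810417H13Rik at chr9:65890323-65903551.

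Promoters are shown because the mitosis genes, Mki67 and 2810417H13Rik were found in the same cells, as described further on. RefSeq sequences (GRCm38.p6) were at hand for 6 of the 8 genes, and Aurkb and Mcm4 are named only. Each line holds the 150 bases before the listed transcript start, 5′ to 3′ on the gene's strand, with matches to CCAAT and to TTTGAA, the core letters of the cell cycle homology region (CHR), on either strand in capitals.
Top2a, chr11:99024190-99024339, minus strand: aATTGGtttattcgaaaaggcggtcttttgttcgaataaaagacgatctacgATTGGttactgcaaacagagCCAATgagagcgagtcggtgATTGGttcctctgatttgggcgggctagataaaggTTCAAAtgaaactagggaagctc
Ube2c, chr2:164769779-164769928, plus strand: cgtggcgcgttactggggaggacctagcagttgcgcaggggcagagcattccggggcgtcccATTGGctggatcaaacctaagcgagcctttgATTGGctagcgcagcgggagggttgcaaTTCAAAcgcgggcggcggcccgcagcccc
Mki67, chr7:135716380-135716529, minus strand: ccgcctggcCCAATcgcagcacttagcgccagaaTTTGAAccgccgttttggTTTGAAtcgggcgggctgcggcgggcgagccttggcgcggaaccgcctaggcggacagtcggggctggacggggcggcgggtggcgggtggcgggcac
2810417H13Rik, chr9:65890173-65890322, plus strand: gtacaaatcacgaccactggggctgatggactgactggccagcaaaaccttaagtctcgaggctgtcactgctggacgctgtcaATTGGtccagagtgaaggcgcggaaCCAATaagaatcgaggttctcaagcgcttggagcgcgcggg
Tyms, chr5:30073626-30073775, minus strand: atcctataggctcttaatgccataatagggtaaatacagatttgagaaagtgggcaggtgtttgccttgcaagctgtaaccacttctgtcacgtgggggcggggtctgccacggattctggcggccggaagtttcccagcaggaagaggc
Mcm2, chr6:88898781-88898930, minus strand: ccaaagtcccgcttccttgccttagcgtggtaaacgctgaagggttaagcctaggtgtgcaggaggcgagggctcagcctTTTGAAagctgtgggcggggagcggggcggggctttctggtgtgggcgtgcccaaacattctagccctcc

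Over the full 250 bases before the start, Top2a and Ube2c held 6 CCAAT matches each, Mki67 held 3, 2810417H13Rik 2, Mcm2 1 and Tyms 0. At least 3 matches were present in 2.79% of 32851 promoter windows of the same length, and at least 1 in 33.8%. TTTGAA had 2 matches in Top2a and in Mki67, 1 in Ube2c and in Mcm2, and 0 in 2810417H13Rik and Tyms, against at least 1 in 15.99% of all windows. The match nearest the start lay 23 bases before it in Top2a, 29 in Ube2c, 98 in Mki67 and 70 in Mcm2. Neither set of letters overlaps the other. The E2F letters TTTCCCGC, TTTCGCGC, TTTGCCGC and TTTGGCGC were found in none of these 6 windows and in 1.86% of all windows. Distances count from the listed transcript start. The printed windows of Mki67, Top2a and Tyms overlap the gene spans given above, so that start is not the outermost end of these genes. A match is a run of letters, and binding was not measured.

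After cells with fewer than 40 detected genes or with more reads than the study's upper limit were left out, 13820 of 21172 cells remained, from 2321 to 4499 per mouse, with a median of 19647.5 to 24283 reads. The libraries held 87117727 to 150756771 reads in all. These are reads and not molecules, and the number per transcript depends on each primer pair, so a level is compared between cells for one gene and never between genes. The level of a gene in a class is given as CPM, the reads of that gene summed over the cells of the class and scaled to a common total of panel reads. Exact binomial intervals of shares and the limit of 3 cells given for a share of 0 cover counting error only. Between 17 and 42 cell barcodes were shared by each pair of mice, and 2 of the 160 kept cells with such a barcode carried 4 or more of the 8 genes. The clusters were formed from the other 389 genes, so that none of the 8 placed a cell. By their markers, 12693 cells were microglia-like (11 of 12 listed markers in at least 50% of cells), 322 T cell-like, 175 macrophage or monocyte-like, 114 neutrophil-like and 53 B cell-like. A cluster of 280 cells was set apart by MHC class II genes. It too had 11 of 12 microglial markers in at least 50% of cells, so it is not shown to be a type other than microglia. A cluster of 183 cells is called the F5 and Thbd cluster after its leading genes, because only 2 of the 8 listed markers of ependymal cells or astrocytes reached 50% of its cells. The macrophage or monocyte-like cells also had only 2 of their 8 listed markers in at least 50% of cells. At that share they had 6 of 12 microglial markers and 4 of 4 MHC class II genes, so their name is less firm.

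In each mouse, T cell-like cells carried the helicase genes far more often than microglia-like cells did. Mcm4 was read in 31.4% of 322 T cell-like cells (95% interval 26.3 to 36.7) and in 8.04% of 12693 microglia-like cells (7.57 to 8.52). By mouse, the T cell-like share with Mcm4 was 35.1%, 30.6%, 34.7% and 24.7%. The microglia-like share was 6.92%, 7.85%, 8.53% and 8.46%, so that the ranges of the cell classes lay apart. Mcm2 behaved alike, with 21.6%, 20.8%, 22.2% and 19.8% of T cell-like cells against 3.86%, 5.72%, 4.87% and 6.25% of microglia-like cells. T cell-like cells had fewer reads per cell than microglia-like cells, with medians of 16783 and 21223. After thinning each cell to 10000 reads, which left out 46 T cell-like and 427 microglia-like cells, the shares with Mcm4 were 32.6% and 8.18%. A cell with a gene mostly held many reads of it, so thinning removes few such cells, and thinned shares here and below leave the part of depth not tested.

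**Figure D1:**
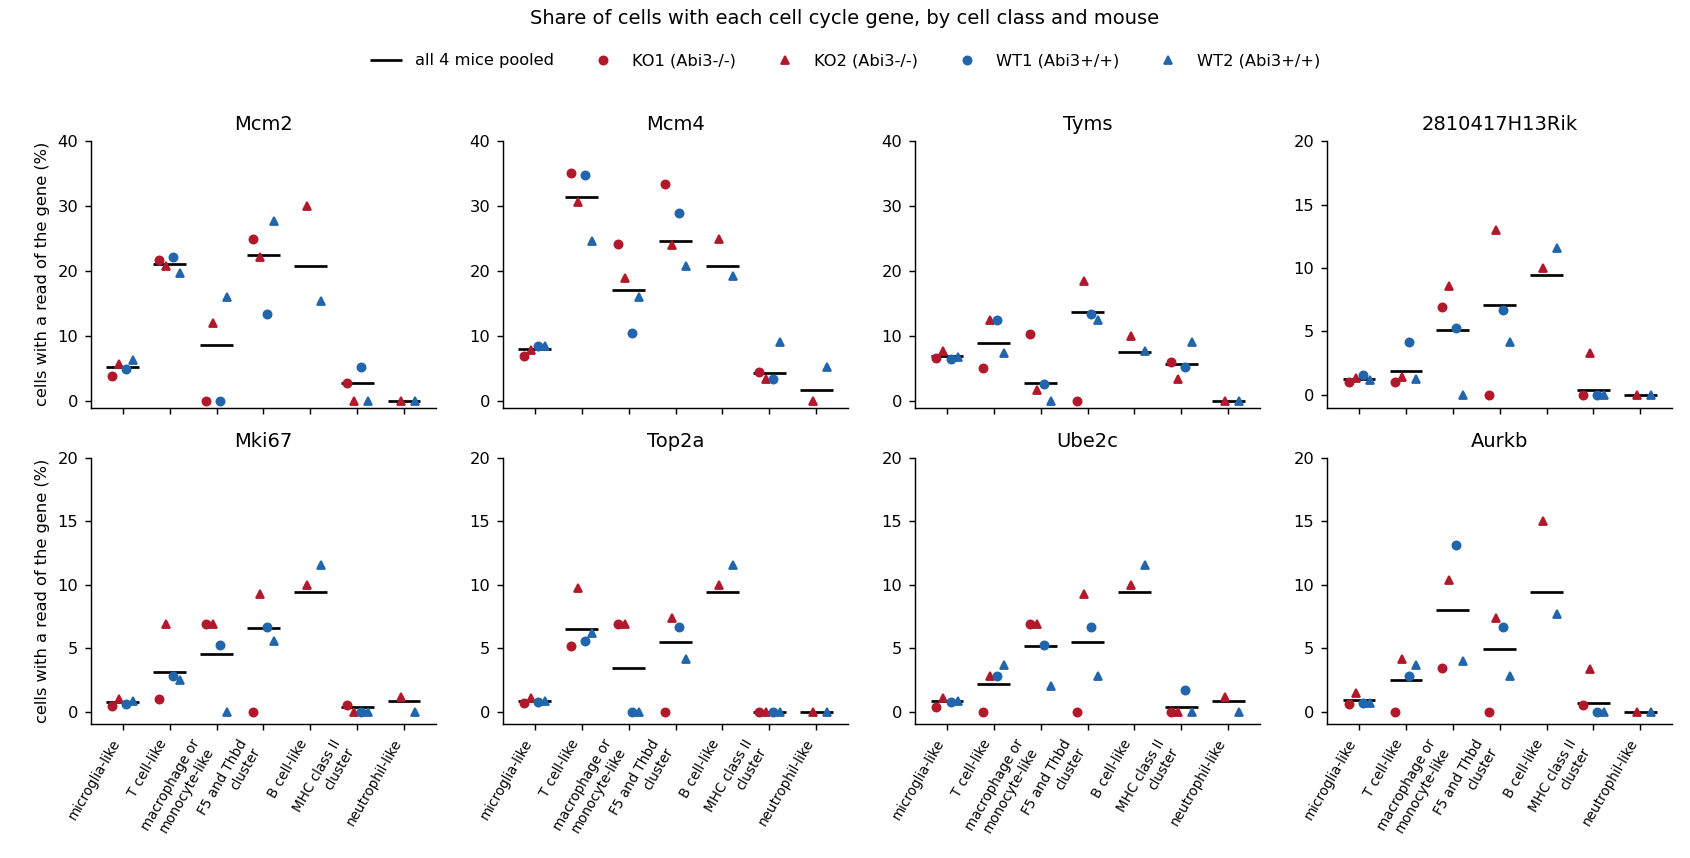
Percent of cells with at least 1 read of each of the 8 genes (vertical axes, up to 40% for Mcm2, Mcm4 and Tyms and up to 20% for the others) by cell class. Points are mice, horizontal bars are all 4 mice pooled, and mice with fewer than 10 cells of a class are not drawn. The pooled bar of Mcm4 stands highest in T cell-like cells, followed by the F5 and Thbd cluster. In B cell-like cells, Mcm2 and Mcm4 were each read in 20.8% of 53 cells. By mouse, Mcm2 was read there in 30% of 20 cells in KO2 and 15.4% of 26 cells in WT2. The pooled neutrophil-like bars lie between 0 and 1.75%.

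Summed per mouse and tested within mice (edgeR quasi-likelihood test with the mouse as a block, adjusted over 324 genes), 3 of the 8 genes were higher in T cell-like than in microglia-like cells and 0 were lower. Over all genes tested, 34.3% were called higher and 30.6% lower (64.8% in either direction), so a count of 3 of 8 stands near the background. Mcm2 was higher by 2.03 on the log2 scale (SE 0.27, adjusted p = 0.00462) and Mcm4 by 1.93 (SE 0.30, adjusted p = 0.00656). Both were called under each of the 11 alternative settings. Top2a was higher by 2.53 (SE 0.54, adjusted p = 0.0159), from 134, 1001, 1646 and 1228 CPM in T cell-like cells against 35.8, 113, 74.2 and 103 CPM in microglia-like cells. Its call was lost without KO2 (edgeR adjusted p = 0.0530) and without WT2 (edgeR adjusted p = 0.0546). Tyms, the third replication gene, gave a log2 difference of 0.0016 (SE 0.51), with 9.01% of T cell-like and 6.96% of microglia-like cells carrying it. The other 4 genes were 1.23 to 2.04 higher with SEs of 0.86 to 2.19 and did not pass the test. Each of the 4 was lowest in KO1. Mki67 stood there at 27.4 CPM against 1095 to 1686 CPM in the other T cell-like sums, and Ube2c and Aurkb had 0 reads in the 97 T cell-like cells of KO1. Without KO1, 5 of the 8 genes were called.

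Few T cell-like cells carried several of the genes together. Of the 322 cells, 146 carried none of the 8, 131 carried 1, 36 carried 2 and 3 carried 3. Only 6 of the 322 cells (1.86%) carried 4 or more of the 8, and all 6 had Trac, which encodes the T cell receptor alpha constant region and was among the genes clustered, with 5 of 6 carrying Cd8a. These 6 cells were deeper than the other T cell-like cells, with medians of 34201.5 and 16637.5 reads. After thinning each cell to 10000 reads, 6 of 276 cells carried 4 or more (2.17%).

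The F5 and Thbd cluster held the genes in 4.92% (Aurkb) to 24.6% (Mcm4) of its 183 cells. The cells with 4 or more of the 8 genes were unlike the rest of the cluster. There were 11 of them (6.01%), and 9 carried Ncam1 (a neural adhesion molecule), 10 Ccnd2 (cyclin D2, which drives entry into the cycle), 9 Bcl11a (a transcription factor) and 8 Pask (a PAS-domain kinase). F5 and Thbd, the genes the cluster is named for, were read in 0 of the 11. In the other 172 cells of the cluster, Ncam1 was read in 31.4%, Ccnd2 in 14.5%, Bcl11a in 1.74%, F5 in 48.8% and Thbd in 11.6%. At the clustering resolution of 1.2, a cluster of 154 cells led by Ncam1 and Cd38 stood apart from one of 96 cells led by F5 and Thbd. Together these clusters hold more cells than the 183, so they are not a split of that cluster alone. The 154 cells had 6 of 12 microglial markers in at least 50% of cells, and the 96 cells had 0. Of microglial markers, Trem2 was read in 0 of the 11 cells and C1qa in 1. No marker list used here reached 50% of these cells with more than 1 of its genes, and they are left without a cell type. They came from 3 of the mice, since KO1 had 12 cells in this cluster and reads of Mcm2 and Mcm4 alone among the 8 genes.

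Among macrophage or monocyte-like cells, Mcm4 was read in 17.1% of 175 cells, Aurkb in 8.0% and Tyms in 2.86%. By mouse, Aurkb stood at 311, 130, 195 and 49.0 CPM, each above the microglia-like sum of that mouse (18.2, 37.2, 28.3 and 25.7 CPM). In edgeR's test 0 of the 8 genes passed, where 48.5% of the 295 genes tested did (22.7% higher and 25.8% lower). Aurkb had the lowest adjusted p among them (log2 difference 2.08, SE 0.86, adjusted p = 0.101, or 0.00108 by DESeq2). Tyms was lower in each mouse (log2 difference -3.01, SE 1.76, edgeR adjusted p = 0.212). Top2a (-3.27, SE 4.21) and Mcm2 (-3.30, SE 3.62) were each higher in 2 mice despite negative fitted differences. Mki67, Ube2c, 2810417H13Rik and Mcm4 had positive differences of 0.32 to 1.43. Of the 6 such cells with 4 or more of the genes, 5 had Ccr2 and 5 had F13a1, against 58.0% and 29.6% of the other 169. Cd74, listed with the MHC class II genes, was read in 1, and C1qa and Cx3cr1 in 0, against 74.0%, 42.6% and 31.4%. Of the 53 B cell-like cells, 5 (9.43%, interval 3.13 to 20.7) carried 4 or more of the genes. All 5 also had Cd79a, a subunit of the B cell receptor that was among the genes clustered, and 0 had Cd74, against 70.8% of the other 48. Those 5 cells came from the 2 mice with at least 10 B cell-like cells, so no test was fitted for this class or for neutrophil-like cells.

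Neutrophil-like cells and the MHC class II cluster carried few of the 8 genes. Mature neutrophils do not divide, and their reads serve as the background of free RNA at a median of 28004.5 reads. This background is mostly that of 1 library, since 84 of the 114 cells came from KO2 and 5, 6 and 19 from KO1, WT1 and WT2. Of the 114 neutrophil-like cells, 0 carried Top2a, Aurkb, 2810417H13Rik, Tyms or Mcm2, which allows a share of up to 2.63%. The microglia-like shares of Mcm2 (5.31%) and Tyms (6.96%) exceeded that limit, and those of Top2a, Aurkb and 2810417H13Rik (0.859% to 1.29%) did not. Mcm4 was read in 2 neutrophil-like cells (1.75%, interval 0.213 to 6.19), below its microglia-like share of 8.04%. Mki67 and Ube2c were each read in 1 neutrophil-like cell (0.877%, interval 0.0222 to 4.79), above their microglia-like shares of 0.796% and 0.819%. A cell with a read of only 1 of Top2a, Aurkb, 2810417H13Rik, Mki67 or Ube2c was thus not separable from background at this number of cells. In the MHC class II cluster the 8 shares ran from 0 (Top2a, of 280 cells) to 5.71% (Tyms), and 0 cells carried 4 or more genes, which allows up to 1.07%. Against microglia-like cells, 0 of 8 passed edgeR's test in a comparison that called 1.87% of 268 genes. Unadjusted p was under 0.05 for Top2a, Mki67 and Ube2c, and DESeq2 called 4 of the 8. Those 3 genes were read in 0, 1 and 1 of the 280 cells and passed the filter on low counts through the microglia-like sums, so nothing is read from these p-values. The cluster held 11 to 181 cells per mouse.

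In microglia-like cells, the 8 genes fell into a common, scattered kind and a rare, joint kind. None was read in 10302 cells, 1960 cells carried a single gene, 301 carried 2, 51 carried 3 and 79 carried 4 or more (0.622% of 12693, interval 0.493 to 0.775). In 13 cells each of the 8 genes was read. Thinned to 10000 reads, 0.595% of 12266 cells carried 4 or more. Cells with 4 or more genes had a median of 24490 reads and 89 detected genes, and cells with none had 20696 reads and 78 genes.

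Mcm2, Mcm4 and Tyms made up the scattered kind. Mcm4 was read in 1020 microglia-like cells, of which 725 had no other gene of the 8, and 7.26% of its reads lay in the cells with 4 or more. Tyms was alone in 670 of 884 cells and Mcm2 in 410 of 674, with 13.1% and 9.44% of their reads in cells with 4 or more. Top2a was the opposite, since 12 of its 109 cells carried it alone and 75 carried at least 3 others, which held 90.7% of its reads. By mouse, the share of Top2a reads in such cells was 84.9%, 89.4%, 91.4% and 93.2%. The corresponding shares of reads were 85.8% for Mki67, 82.1% for Ube2c, 72.4% for Aurkb and 69.7% for 2810417H13Rik. Aurkb and 2810417H13Rik were more often alone, in 40 of 120 and 73 of 164 cells. A cell with Mcm2, Mcm4 and Tyms only cannot reach 4 genes, while the other genes can reach 4 without them. The shares of reads in cells with 4 or more thus follow in part from the make-up of the list and are a description.

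The reads per positive cell differed in the same way. A cell with Top2a alone had a median of 39.5 reads of it, and a cell with Top2a among 4 or more genes had 253. For Mki67 the medians were 46.5 and 258, and for Ube2c 56 and 174. For Mcm4 they were 50 and 70, for Mcm2 47 and 84, and for Tyms 55 and 84.5. The median was thus higher among 4 or more genes for the replication genes too, by a smaller factor than for Top2a, Mki67 and Ube2c. The classes here were made from the same genes, and these medians are a description.

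**Figure D2:**
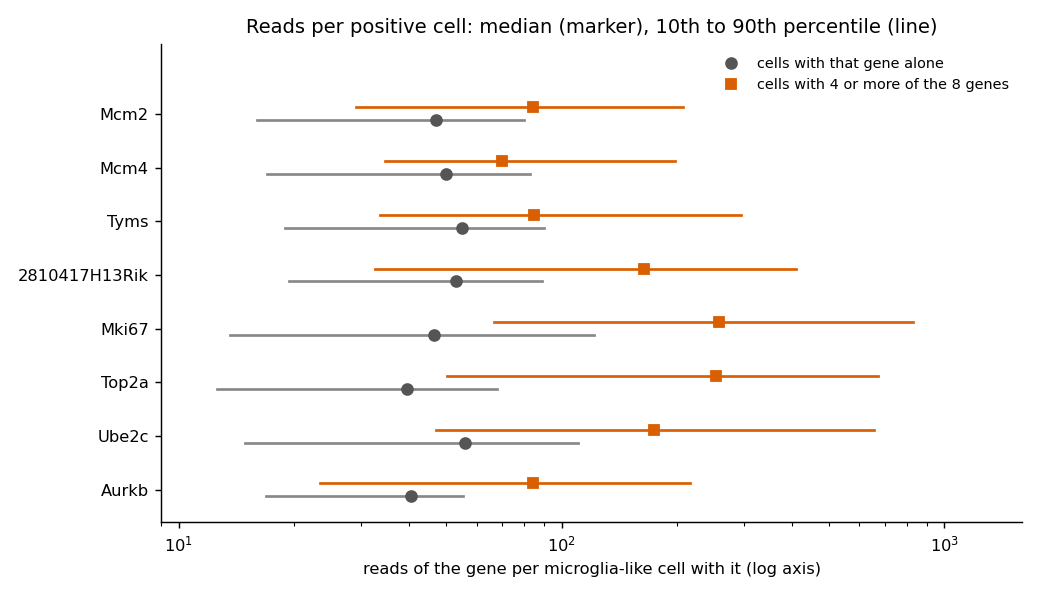
Reads of each gene per microglia-like cell that had the gene (horizontal axis, logarithmic), for cells with that gene alone among the 8 (circles) and cells with 4 or more of the 8 (squares). Markers are medians and lines run from the 10th to the 90th percentile of cells. The medians lie far apart for Top2a (39.5 and 253) and Mki67 (46.5 and 258) and closer together for Mcm4 (50 and 70).

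Pairs of genes were read in the same microglia-like cell more often than the product of their shares, taken within each mouse and summed, for each of the 28 pairs. Top2a and Mki67 were read together in 72 cells where 0.911 would follow from that product, a ratio of 79.0, and by mouse the ratio was 102, 74.0, 95.6 and 70.8. The 3 pairs of mitosis genes had ratios of 44.8 (Ube2c and Aurkb) to 70.4 (Top2a and Ube2c). The 3 pairs of replication genes had ratios of 1.78 (Tyms and Mcm4, 126 cells against 70.9) to 3.54 (Mcm2 and Mcm4, 193 cells against 54.5). Over all mice, pairs of a replication and a mitosis gene lay between them, from 3.92 (Ube2c and Mcm4) to 7.13 (Top2a and Tyms). This order did not hold in WT1, where Ube2c and Mcm4 (1.35, 3 cells) lay below each replication pair, and Aurkb and Mcm4 (2.93) and Top2a and Mcm4 (3.61) lay below Mcm2 and Mcm4 (3.70). A common gene limits the ratio, which could not exceed 12.4 for Mcm2 with Mcm4 and 111 for Top2a with Mki67. As a share of the rarer gene, which has no such limit, 28.6% of the cells with Mcm2 had Mcm4 and 71.3% of those with Mki67 had Top2a. Tyms was read in 50.5% of the cells with Top2a and Mcm2 in 35.8%. Cells share depth and library, and no test was made of these ratios.

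**Figure D3:**
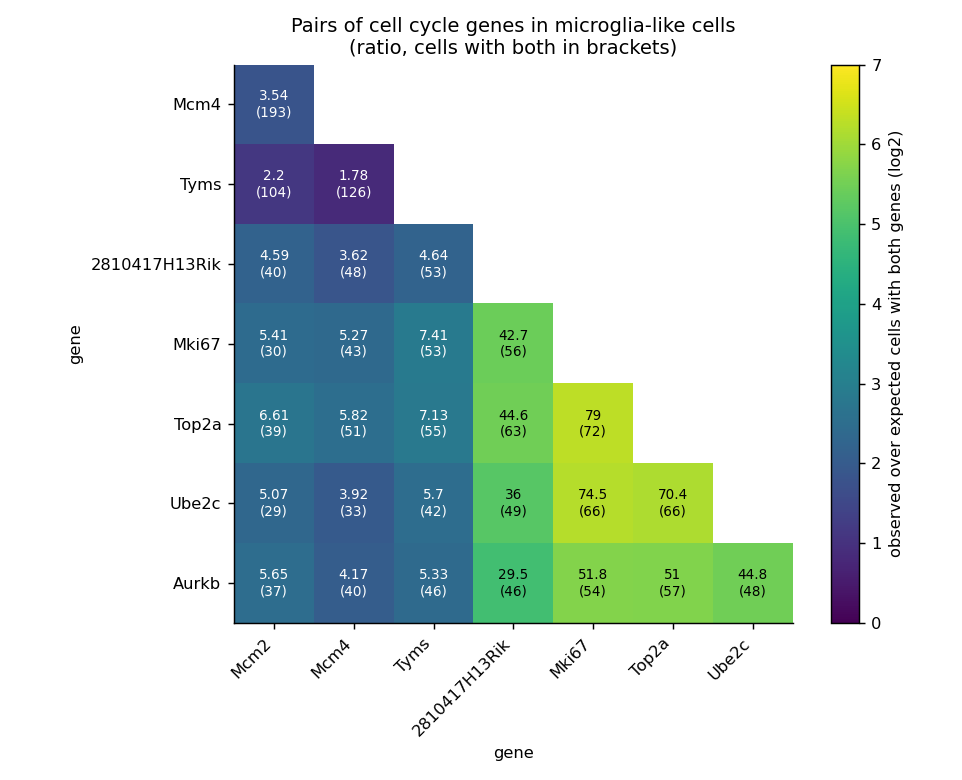
Ratio of observed to expected microglia-like cells with both genes, for each of the 28 pairs of the 8 genes, with the number of cells in brackets; the colour scale is log2 of the ratio. The block formed by Mki67, Top2a, Ube2c and Aurkb reaches 79.0, and the pairs of Mcm2, Mcm4 and Tyms stay at 3.54 or below.

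Replication and mitosis were then set against each other by counting cells with at least 2 genes of each set. In microglia-like cells, 317 carried 2 or more of Mcm2, Mcm4 and Tyms, 77 carried 2 or more of Top2a, Ube2c and Aurkb, and 34 met both conditions. Thus 44.2% of the mitosis cells also had 2 replication genes, while 10.7% of the replication cells had 2 mitosis genes. Of the 77 mitosis cells, 23 had 1 replication gene and 20 had none. Mki67 and 2810417H13Rik were in neither definition. Mki67 was read in 66 of the 77 mitosis cells (85.7%) and 2810417H13Rik in 56 (72.7%), against 2 (0.749%) and 3 (1.12%) of the 267 cells with replication genes and no mitosis gene. The summed Mki67 level was 6862, 11121, 16296 and 14001 CPM in the mitosis cells, and 0, 46.0, 0 and 5.97 CPM in the replication cells. Both genes passed the filter on low counts through the mitosis class, where they are high, so their tests are not used and these values are a description.

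Markers of microglia were among the genes that formed and named the clusters, so their presence in the 79 microglia-like cells with 4 or more genes is a description. C1qa and Trem2 were read in 79 of 79, and Cx3cr1, the fractalkine receptor, in 67 (84.8%), where 88.3% of the remaining microglia-like cells had it. Ncam1, Ccnd2, F5, Cd8a and Cd79a were read in 0 of the 79 and Trac in 1. Of the 107 kept cells with 4 or more of the 8 genes, 79 were microglia-like (73.8%), 11 were in the F5 and Thbd cluster, and 6, 6 and 5 were macrophage or monocyte-like, T cell-like and B cell-like. Within the microglia-like cells, the share with 4 or more genes ranged over the 10 clusters from 0 of 1126 to 2.31% (16 of 692). That highest cluster was led by Cxcl10, Tnf and Ccl4, and its share by mouse was 4.76%, 5.17%, 3.72% and 1.18%. The shares of clusters are pooled over mice, so no order of clusters within each mouse is read from them. The cluster led by Cst7, Apoe and Spp1 had 1.06% (11 of 1035), and the cluster led by Lilrb4a, Cst7 and Ccl4 had 0.827% (12 of 1451). The 3 clusters with Fosb, Egr1, Jun and Junb all among their leading genes were not alike. Those led by Fosb and by Egr1 had 1 of 2002 and 1 of 1320, and the one led by Qpct and Junb had 16 of 1199 (1.33%).

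Other panel genes differed between microglia-like cells with 4 or more of the 8 genes and those with none. Pcna, which encodes the replication clamp, was the most firmly higher. It stood at 982, 650, 986 and 994 CPM in cells with none and at 12927, 4328, 10280 and 6708 CPM in cells with 4 or more. The difference was 2.92 on the log2 scale (SE 0.24, edgeR adjusted p = 0.00246), was seen in 4 of 4 mice and was called under each of 12 alternative settings. Pcna was read in 91.1% of the cells with 4 or more genes against 53.2% of the remaining microglia-like cells. Pask rose from 7.77, 14.3, 17.03 and 9.96 CPM to 563, 656, 545 and 924 CPM, a log2 difference of 5.58 (SE 0.77, edgeR adjusted p = 0.0135), and was read in 31.6% of cells against 0.745%. It was called under 10 of 12 alternative settings, and the call was lost without KO2 and without WT2 (edgeR adjusted p up to 0.0879).

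Altogether 28 of the 252 other genes tested passed (11.1%), 8 higher (3.17%) and 20 lower (7.94%). The median gene stood at -0.63, so that values near it are those of the typical gene. Without TMM scaling the median was -0.39 and the calls were 10 higher and 10 lower. Besides Pask and Pcna, the higher genes were Tmem97 (2.01), Bax (1.18), an inducer of apoptosis, the cytokine gene Tnf (1.08), Gapdh (1.01), Cd52 (0.87) and Cd34 (0.64). Tnf was also among the leading genes of the cluster with the highest pooled share of such cells. The lower genes included Apoe (-2.22, SE 0.44), the apolipoprotein of disease-associated microglia, with 8314, 4858, 4167 and 2679 CPM in cells with none and 5424, 624, 728 and 752 CPM in cells with 4 or more. The immediate early genes Junb (-1.57, SE 0.28) and Fosb (-1.29, SE 0.23) were lower in 4 of 4 mice, and so were the Fc receptor gene Fcgr3 (-1.19, SE 0.14), Cd14 (-1.15), Lag3 (-1.08), Lyz2 (-1.02), Slc11a1 (-1.01), Cd63 (-1.01) and Fscn1 (-1.001). Trem2 (-0.68, SE 0.11) and C1qa (-0.63, SE 0.12) were called lower at values close to the median gene. Of the other state genes listed, Cst7 (-0.090, SE 0.31), Cx3cr1 (-0.43), Selplg (0.19), Itgax (-1.46), Spp1 (0.80), Lilrb4a (-0.98), Jun (-0.55) and Egr1 (-0.97) did not pass. These counts rest on 7, 38, 18 and 16 cells per mouse, and leaving out a mouse gave 27 calls (without KO1), 4 (without KO2), 3 (without WT1) or 1 (without WT2).

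**Figure D4:**
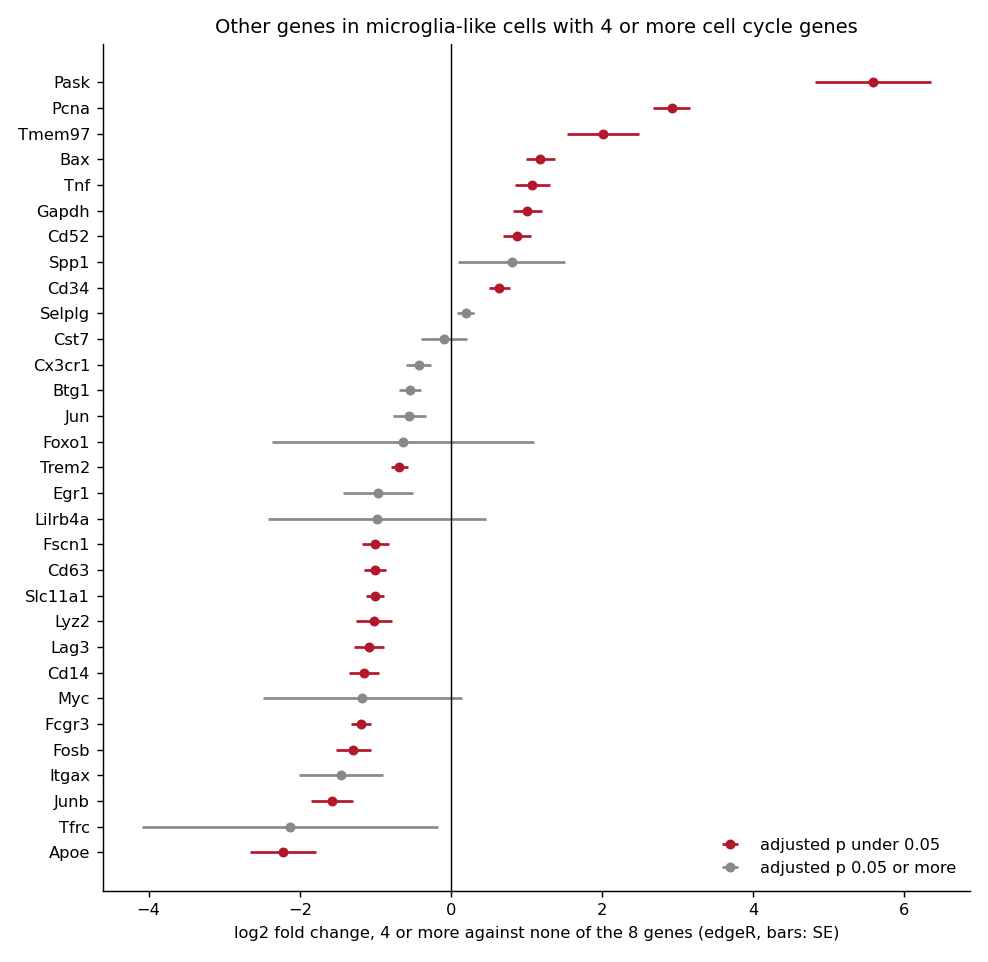
Log2 fold change (horizontal axis) of other panel genes in microglia-like cells with 4 or more of the 8 cell cycle genes against those with none, fitted on sums per mouse with edgeR. Bars are standard errors derived from the fold change and the F statistic of the test, and coloured points passed an adjusted p of 0.05. Pask (5.58) and Pcna (2.92) stand farthest right and Apoe (-2.22) farthest left.

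The panel holds 8 further genes of the cell cycle or of growth, of which 7 were tested in this comparison. Pask, Pcna and Bax were higher and 0 were lower, and the median of the 7 was -0.54. Btg1, an antiproliferative gene, gave -0.54 (SE 0.14, adjusted p = 0.0609 in edgeR), Myc -1.17 (SE 1.31), Foxo1 -0.63 (SE 1.74) and Tfrc -2.13 (SE 1.96). Ccnd2 did not pass the filter on low counts, and it had 0 reads in the microglia-like cells with 4 or more genes in all 4 mice, where the F5 and Thbd cluster had it in 10 of 11. Across microglia-like cells, the 5 genes whose level followed the number of the 8 genes most closely were Pask (mean Pearson r over 4 mice 0.20), Pcna (0.14), Gapdh (0.091), Tmem97 (0.091) and Lgals1 (0.064). These correlations are weak, were computed on sparse reads and are given as a description.

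Between mitosis cells and cells with replication genes alone, 11 of 206 genes passed in edgeR (5.34%), 5 higher (2.43%) and 6 lower (2.91%), or 8 and 3 without TMM scaling. Beside Mki67 and 2810417H13Rik, whose calls are not read as support for the reason given above, the higher genes were Pcna (1.84, SE 0.36), Tmem97 (1.77, SE 0.36) and Bax (0.99, SE 0.21). Pcna stood at 11289, 3509, 10009 and 6490 CPM in mitosis cells and 1230, 1285, 2655 and 2614 CPM in replication cells. Junb (-1.37), Adgre1 (-0.95), Cd63 (-0.88), Fcgr3 (-0.84), Slc11a1 (-0.82) and C1qa (-0.45) were lower. The classes held 9, 34, 17 and 17 mitosis cells and 27, 88, 75 and 77 replication cells. Each of these 9 calls was lost whichever mouse was left out, and DESeq2 made 35 calls.

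Disease-associated microglia express Apoe, Cst7 and Itgax, and cells with all 3 were compared with cells with none. No one direction held for joint cells over these classes. Of 1741 microglia-like cells with all 3 genes, 3 carried 4 or more cell cycle genes (0.172%, interval 0.0355 to 0.503), and all 3 came from KO1, where they were 1.08% of 278 cells. Of 5000 cells with none of the 3 genes, 32 did (0.640%, interval 0.438 to 0.902), and by mouse these were 0 of 373, 17 of 1311, 10 of 1881 and 5 of 1435. Of 5952 cells with 1 or 2 of the 3 genes, 44 did (0.739%, interval 0.538 to 0.991), and the clusters led by Cst7, Apoe and Spp1 and by Lilrb4a and Cst7 held 1.06% and 0.827%. No test was made of these shares. Cells with all 3 genes were deeper (medians of 34804 and 18374.5 reads), and the part of depth in these shares was not tested. Tyms was read in 9.99% of cells with all 3 genes and 5.96% of cells with none. By mouse the shares with Tyms were 10.4%, 10.5%, 9.29% and 9.21% against 4.56%, 5.95%, 6.49% and 5.64%, and the ranges did not overlap. The summed level did not bear this out, since Tyms was at 202, 152, 181 and 162 CPM against 132, 182, 209 and 172 CPM, higher in 1 of 4 mice, and no order is read from the shares. In edgeR 0 of the 8 genes passed, in a comparison that called 49.6% of 258 genes (24.4% higher and 25.2% lower). Tyms had a log2 difference of 0.60 (SE 0.21, adjusted p = 0.0609) with TMM scaling and 0.014 without it, where the scaling itself moved the median gene by 0.59. Without KO1, which held the 3 joint cells, 1 of the 8, Top2a, was called lower (with all mice -3.88, adjusted p = 0.161 in edgeR). Top2a was then read in 1 cell with all 3 genes in each mouse and passed the filter on low counts through the cells with none, so nothing is read from that call.

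The question of genotype was whether loss of Abi3 went with more or fewer cycling cells. Among microglia-like cells, the share with 4 or more genes was 0.351% in KO1 (7 of 1993), 0.909% in KO2 (38 of 4181), 0.504% in WT1 (18 of 3574) and 0.543% in WT2 (16 of 2945). KO1 was the lowest and KO2 the highest, with WT1 and WT2 between them. The means were 0.630% ± 0.394 (SD, n = 2) and 0.523% ± 0.0280 (SD, n = 2), and a two-sided exact permutation test gave p = 1 where 0.333 is the smallest p that 2 against 2 mice allow. The share of replication cells that had 2 mitosis genes was 12.5% in KO1 (4 of 32), 13.6% in KO2 (15 of 110), 5.88% in WT1 (5 of 85) and 11.1% in WT2 (10 of 90). KO1 and KO2 lay above WT1 and WT2, with means of 13.1% ± 0.804 and 8.50% ± 3.70 (SD, n = 2 each), a difference of 4.57 percentage points and an exact permutation p of 0.333, the smallest this design can give. The difference was 1.96 points without WT1 and 7.19 without WT2, and 0 with a minimum of 100 reads per gene, chosen after seeing the data. The binomial interval of each of these shares overlapped those of the other mice.

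No cell cycle gene differed between the genotypes in edgeR's test of the sums per mouse. In microglia-like cells 0 of 8 passed, as did 0 of the 320 genes tested, with 27 genes and 0 of the 8 under an unadjusted p of 0.05, and DESeq2 called 0 of the 8. Mcm4 was at 153 and 174 CPM in KO1 and KO2 against 211 and 242 CPM in WT1 and WT2, a log2 difference of -0.28 (SE 0.19, adjusted p = 0.830 in edgeR). Mcm2 was at 79.8 and 128 CPM against 138 and 172 CPM, a log2 difference of -0.38 (SE 0.34, adjusted p = 0.866 in edgeR). With 2810417H13Rik (41.5 and 56.9 against 58.8 and 68.7 CPM), these were the 3 of 8 genes whose genotypes did not overlap, each lower in KO1 and KO2. Of all genes tested, 45.3% did not overlap, so 3 of 8 is not above the background. Top2a (35.8 and 113 against 74.2 and 103 CPM), Ube2c (24.0 and 98.6 against 74.2 and 93.9 CPM) and Mki67 (41.2 and 111 against 96.7 and 100 CPM) each had their lowest value in KO1 and their highest in KO2. Their log2 differences were -0.047 (SE 0.66), -0.25 (SE 0.76) and -0.18 (SE 0.56), and each turned positive without KO1. Aurkb gave 0.23 (SE 0.50) and went to -0.40 without KO2. Tyms gave 0.11 (SE 0.18) and -0.081 without TMM scaling, which moved the median gene by 0.19. In all kept cells, 0 of 8 passed and 0 of 375 genes tested did, with 21 genes and 0 of the 8 under an unadjusted p of 0.05 and 0 of the 8 called by DESeq2. There 2 of 8 genes, Mcm4 and Tyms, did not overlap, against 33.3% of all genes. With SEs of 0.50 to 0.76 for the mitosis genes and Mki67, a difference of 1 on the log2 scale was not detectable with 2 mice per genotype.

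**Figure D5:**
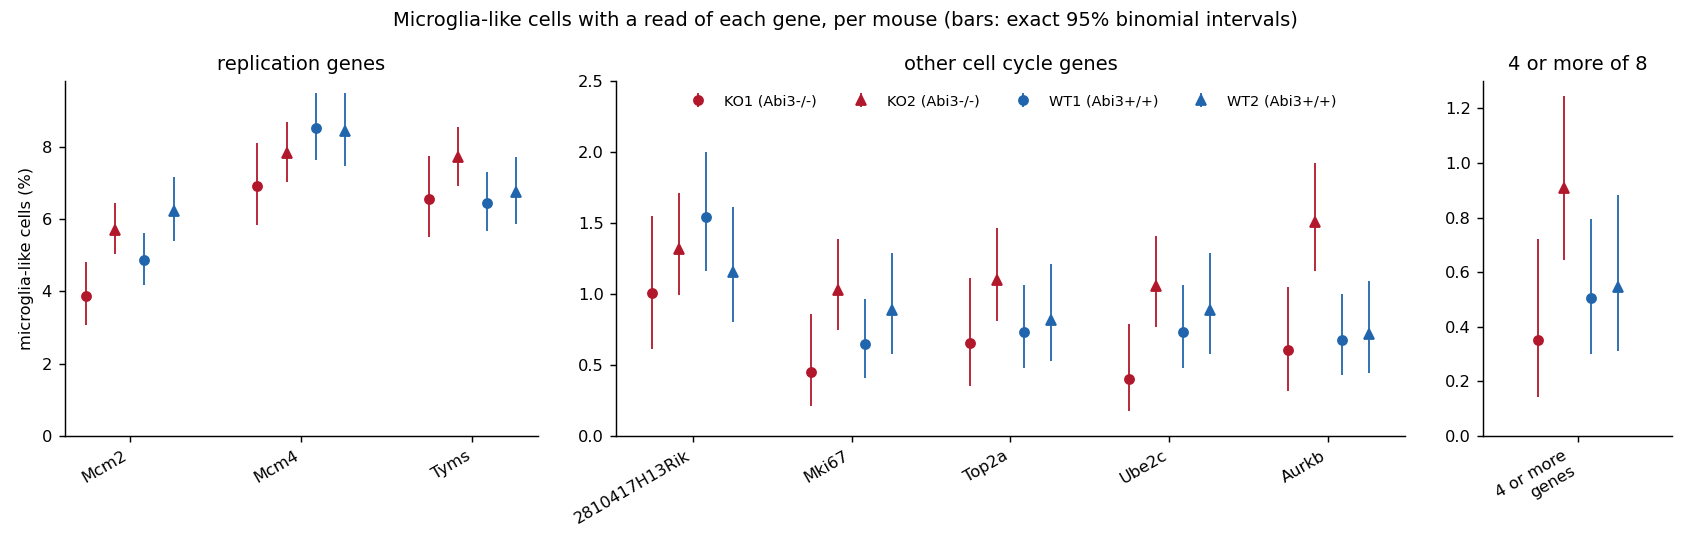
Percent of microglia-like cells with each cell cycle gene, and with 4 or more of the 8 (right), in each of the 4 mice. Bars are exact 95% binomial intervals of each mouse, and the vertical axes differ between panels. KO1 is lowest and KO2 highest for 4 or more genes (0.351% and 0.909%), with WT1 and WT2 between them.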

How the data were processed

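Brain cells of 4 mice were profiled with the BD Rhapsody Mouse Immune Response Panel. The sequencing output went through BD's targeted analysis pipeline with its default settings. The authors deposited counts of reads for each cell and gene, corrected by DBEC (an error correction based on the distribution of reads per molecule), with mm10 as the genome build in the submitters' processing notes. The deposited counts were used as they stood. The number of reads is not the number of molecules. The study's methods give the lower limit for cells as 40 unique reads, and here it was read as 40 detected genes.

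Clustering used Seurat 5.3.0 in R 4.3.3 (log-normalization to 10000 reads, 389 genes, 10 principal components, resolution 0.8), and no doublet caller was run. A class was named from listed markers. Reads were summed per mouse and class, for mice with at least 10 cells where cell types were compared, and tested with edgeR 4.0.16 (TMM, its default filter on low counts, quasi-likelihood test, Benjamini-Hochberg adjustment, threshold 0.05), with the mouse as a block where classes were compared within mice. The SE of an edgeR difference is the absolute log2 difference divided by the square root of the test's F statistic. It is not a separately estimated error and is unsure where sums are 0. Genes that defined a class were left out of the adjustment. Shares were compared by exact permutation over mice. Alternatives included DESeq2 1.42.0, no TMM, no filter, no block, other resolutions, thinning and leaving out each mouse, and a minimum of 100 reads was added after seeing the data. All scripts were tested on simulated data.

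The members and gene lists were chosen with earlier results of these data known. The 8 genes were named in each comparison. Beyond them were named up to 10 other genes in each direction with the largest change among those called with one direction in each mouse, the 5 genes most correlated with the number of members, and the listed growth and microglial state genes. Mice of a genotype are separate animals by their labels, with 1 library each.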

Additional observations from a re-analysis of the deposited data

Results flagged for a closer look

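The cell limits left out part of the cells that carried many of the 8 genes. Among the 1678 cells with more reads than the study's upper limit, 62 carried 4 or more of the genes (3.69%), against 107 of 13820 kept cells (0.774%). The share was 4.67% in KO1, 3.58% in KO2, 3.67% in WT1 and 3.41% in WT2. These cells were deep, with a median of 87194 reads over all cells above the limit, where Tyms was read in 20.9%, Mcm4 in 14.96%, Mcm2 in 11.8% and Top2a in 3.69% of cells. Of the 62 cells, 72.6% had Trem2, 64.5% C1qa and 56.5% Cx3cr1, against 92.9%, 92.4% and 81.2% of all cells above the limit, and 1.61% had Trac. The part that pairs of cells in 1 well had in this share was not tested. Among the 5674 cells with fewer than 40 detected genes, 8 carried 4 or more of the 8 genes (0.141%).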

How the results depend on the processing

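Under the alternatives, the genotype comparisons kept 0 called members each, also with the replicate block (0 of 8 in microglia-like and 0 of 8 in all kept cells). The replicate numbers were not shown to pair mice across genotypes, and the correlation of the deviations of same-numbered mice was 0.355, a single value, since with 2 mice per genotype both numbers give the same one. Called members of the T cell-like comparison were 3, and 5 by DESeq2 and without the block, with 2 to 5 when a mouse was left out. The macrophage or monocyte-like comparison gave 0, and 1 by DESeq2 and without the block. The MHC class II cluster gave 0, then 4 by DESeq2 and 1 without the block. The comparison by Apoe, Cst7 and Itgax gave 0, then 2 by DESeq2, 1 without TMM scaling, 1 without the block and 0 to 1 when a mouse was left out. Other genes called in cells with 4 or more members numbered 28, then 68 by DESeq2, 11 without the filter on low counts, 54 without the block and 1 to 27 when a mouse was left out. Mitosis against replication gave 11, then 35 by DESeq2, 1 without the filter, 2 without the block and 0 to 2 when a mouse was left out. The causes were not tested.

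The genotype difference in the share with 4 or more genes (0.107 percentage points) turned to -0.197 with at least 3 genes and -0.0451 with a minimum of 100 reads per gene, an alternative chosen after seeing the data, and ran from -0.172 to 0.385 when a mouse was left out. The difference in the mitosis share (4.57 points) was 0 at 100 reads and 1.96 to 7.19 when a mouse was left out.

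Signs of unpassed single-gene differences turned as follows. Between genotypes, Tyms was -0.081 without TMM scaling, Top2a ran from -1.13 to 0.48, Mki67 from -1.08 to 0.29, Ube2c from -1.63 to 0.36 and Aurkb from -0.40 to 0.58 when a mouse was left out, and Aurkb was -0.053 when clustered on all genes. In T cell-like cells, Tyms ran from -0.43 to 0.33 when a mouse was left out, and was -0.0035 at resolution 0.4 and -0.059 when clustered on all genes. In macrophage or monocyte-like cells, Top2a was 1.12 and Mcm2 0.18 without the block, and when a mouse was left out Mki67 ran from -0.16 to 2.44 and Mcm4 from -0.22 to 0.83. In cells with 4 or more members, Cst7 was 0.064 by DESeq2, 0.14 without TMM scaling, 0.079 without the filter, 0.55 after thinning, 0.11 with at least 3 genes and -0.42 to 0.20 when a mouse was left out. Foxo1 was 0.40 without the block and -1.55 to 0.41 when a mouse was left out, Lilrb4a 0.21 with at least 3 genes and -1.72 to 0.0071 when a mouse was left out, and Tfrc 0.56 with at least 3 genes. By Apoe, Cst7 and Itgax, with 2 or more of these genes Ube2c was 0.27, Aurkb 0.53 and 2810417H13Rik 0.42, and Aurkb was 0.022 after thinning. When a mouse was left out, Ube2c ran from -1.91 to 0.72, Aurkb from -1.23 to 0.81 and Mcm2 from -0.47 to 0.010.

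Thinning of reads removes few cells with a gene, so it does not show what depth limits. What set the precision was not tested.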

Other observations

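When the cells were clustered on all 397 genes, the 8 included, 1 cluster of 105 cells held 86 of the 107 cells with 4 or more of them (80.4%), and 81.9% of its cells carried 4 or more. The 8 genes helped to form this cluster and also chose the cells counted, so this gathering is a description and shows no separate population. By the clusters formed without the 8 genes, 94 of its cells were microglia-like and 10 were from the F5 and Thbd cluster, so it joined cells with C1qa and Trem2 to cells that mostly lacked both. Of the other cells with 4 or more genes, the T cell-like cluster held 6, the B cell-like cluster 5, the macrophage or monocyte-like cluster 5 and the cluster that kept most of the F5 and Thbd cells 1. A further cluster of 182 cells, led by Pask and Mcm2, held 4.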
